A study of Mus musculus with 24 samples.

Results

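The 10 genes described here are the signaling molecules of the Nodal axis and the genes that mark formative pluripotency, namely Nodal, Gdf3, Tdgf1, Lefty1, Lefty2, Fgf4, Fgf5, Otx2, Pou3f1 and Zic2. They were listed by name, found through their Ensembl identifiers in GENCODE vM21, and all 10 were present among the 37315 genes of the normalized count table. Their levels were followed in 12 populations of 2 RNA-seq libraries each, 24 libraries in all. Every population came from the PaX system, 1 hybrid M. musculus/M. castaneus female ESC line that carries a GFP reporter on the M. musculus X chromosome, a truncated Tsix allele and doxycycline-inducible Myc, Klf4, Oct4 and Sox2. ESCs were grown in serum and LIF, and NPCs were differentiated from them. For reprogramming, NPCs received doxycycline and L-ascorbic acid in LIF-containing medium on irradiated male mouse embryonic fibroblasts (MEFs). They were kept either without further treatment (control) or with IFNγ at 10 ng/ml from day 0 to day 5. Cells negative for the dye that marked the MEFs were collected at day 2, SSEA1-positive cells at day 5, and SSEA1-positive cells sorted into the classes X-GFP–negative, –medium and –high at day 7, so that the day 7 cells of the treated arm had been without IFNγ for the last days. These cells were sorted from mixed cultures, and in such bulk samples a smaller number of expressing cells and less RNA per cell cannot be told apart. The study's methods call the 2 libraries of a population independent replicates, but neither they nor the labels say what was independent, such as a separate NPC differentiation or reprogramming round, so the p-values measure the spread between these libraries.

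Nodal is a secreted ligand of the TGF-β family that signals through activin receptors and SMAD2 and SMAD3, together with the DNA-binding partner FOXH1, and induces its own gene. Its reception depends on an EGF-CFC co-receptor, and it is limited by the secreted Lefty proteins, whose genes are themselves targets of the pathway. In the early embryo the axis maintains the epiblast and later patterns it. Formative pluripotency is the state between the naive pluripotency of the preimplantation epiblast, which ESCs in LIF resemble, and the primed state before gastrulation. FGF signaling through ERK drives the exit from the naive state, and Otx2, Pou3f1, Zic2 and Fgf5 are genes that are known to mark or promote the state that follows.

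The promoters of 5 of the 10 genes were found in the RefSeq promoter table (build GRCm38.p6), namely those of Nodal, Tdgf1, Fgf4, Fgf5 and Otx2. Those of Nodal, Tdgf1 and Fgf4 are shown because these genes moved together over the populations, and that of Fgf5 because it took another course. Each sequence is the 250 bases before the transcription start, 5′ to 3′ on the strand of the gene, and capitals mark the only match to a searched motif. The positions are chr10:61417722-61417971 on the plus strand for Nodal, chr9:110946159-110946408 on the minus strand for Tdgf1, chr7:144861136-144861385 on the plus strand for Fgf4 and chr5:98253934-98254183 on the plus strand for Fgf5.
Nodal: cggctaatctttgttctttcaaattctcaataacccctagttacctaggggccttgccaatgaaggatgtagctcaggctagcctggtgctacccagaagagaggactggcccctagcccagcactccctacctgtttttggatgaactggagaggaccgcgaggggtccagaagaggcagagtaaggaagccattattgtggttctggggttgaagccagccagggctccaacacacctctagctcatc
Tdgf1: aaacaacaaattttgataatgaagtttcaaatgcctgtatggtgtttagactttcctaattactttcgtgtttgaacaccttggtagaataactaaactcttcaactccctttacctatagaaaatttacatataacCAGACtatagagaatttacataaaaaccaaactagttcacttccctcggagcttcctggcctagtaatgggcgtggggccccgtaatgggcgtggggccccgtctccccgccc
Fgf4: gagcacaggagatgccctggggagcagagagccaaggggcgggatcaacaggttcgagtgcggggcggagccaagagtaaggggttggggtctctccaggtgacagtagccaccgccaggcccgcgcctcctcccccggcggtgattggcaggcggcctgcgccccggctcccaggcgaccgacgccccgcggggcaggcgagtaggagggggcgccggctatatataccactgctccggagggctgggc
Fgf5: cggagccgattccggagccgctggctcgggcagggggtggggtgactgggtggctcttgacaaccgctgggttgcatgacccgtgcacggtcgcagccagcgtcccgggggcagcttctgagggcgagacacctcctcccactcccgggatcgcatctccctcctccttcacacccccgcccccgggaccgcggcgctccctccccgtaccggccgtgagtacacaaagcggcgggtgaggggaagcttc
The promoters were searched on both strands for the FOXH1 core TGTGNATT, the SMAD element CAGAC, the octamer ATGCAAAT, the SOX core ACAATG, the interferon-related GAS element TTCNNNGAA and the TATA box TATAAA, and the matches shown do not overlap each other. In these letters, Tdgf1 held 1 SMAD element, 113 to 109 bases before the start, and the other 3 windows shown held none of these letters. Of all 32851 promoters of this length, 42.2% held a SMAD element, 3.18% a FOXH1 core, 1.60% an octamer, 10.7% a SOX core, 7.02% a GAS element and 12.4% a TATA box. Of the 4 promoters listed for Otx2, 1 held a TATA box and another held 1 GAS element, 113 to 105 bases before its start. GC made up 71.2% of the Fgf4 window and 70.8% of the Fgf5 window, against 42.0% for Tdgf1, 53.2% for Nodal and a median of 52.4% over all promoters.

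Reads on genes numbered 24746109 to 37056508 per library. NPCs carried the neural markers fixed for this check (7 of 7 above 3 reads, summed to 44694 to 47880 normalized counts, against 797 to 866 in ESCs), and ESCs carried all 8 naive markers (103845 to 105396 against 318 to 481 in NPCs). NPCs also held 1400.2 and 2241 normalized counts of the mesoderm gene T and 1550 and 2037 of the endoderm and floor plate gene Foxa2. The Y-linked genes Ddx3y, Eif2s3y, Uty and Kdm5d, which the female line lacks and male MEFs carry, summed to 218 to 253 in day 2 control cells, 125 to 223 in IFNγ-treated cells at day 2 and at most 12.5 in any library of day 5 or day 7.

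**Figure D1:**
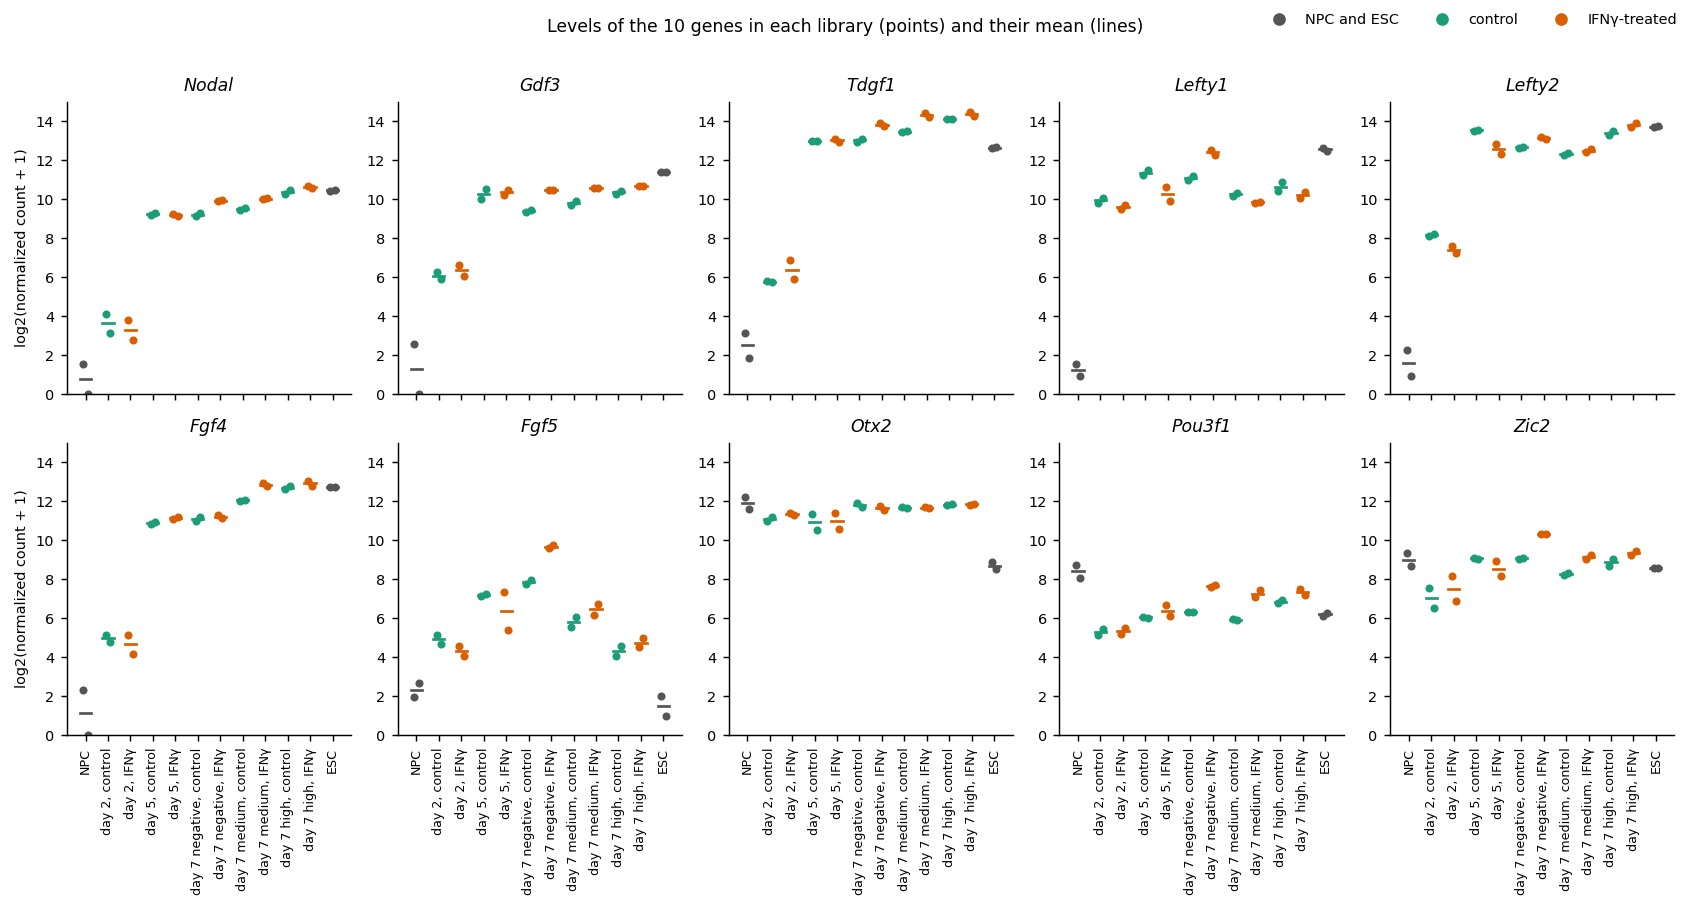
Level of each gene in the 24 libraries, as log2(normalized count + 1) on the y axis, with the 12 populations on the x axis (gray, NPCs and ESCs; green, control; orange, IFNγ-treated). Points are libraries and lines are means of 2. Nodal, Gdf3, Tdgf1, Lefty2 and Fgf4 lie near 0 in NPCs and high from day 5, Lefty1 is already high at day 2, Fgf5 peaks in X-GFP–negative cells, and Otx2 is lowest in ESCs.

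In ESCs the antagonists were the most abundant of the 10 transcripts per kb of exon, with 5218 ± 242 normalized counts per kb for Lefty2 and 3432 ± 212 for Lefty1 (SD, n = 2). The co-receptor gene Tdgf1 (also known as Cripto) had 2456 ± 81.2 and Fgf4, the FGF ligand of naive cells, 2132 ± 15.8 per kb. The ligands were lower per kb, at 1098 ± 4.90 for Gdf3 and 669 ± 13.5 for Nodal. The formative genes were lower still, at 133 ± 1.12 for Zic2, 98.1 ± 16.6 for Otx2, 18.8 ± 1.35 for Pou3f1 and 0.780 ± 0.564 for Fgf5. In NPCs the order was turned around, and Otx2 led with 926 ± 276 normalized counts per kb, Zic2 had 182 ± 55.0 and Pou3f1 had 89.9 ± 28.7, while each of the other 7 had at most 1.99 per kb.

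The start of reprogramming was described by day 2 control cells against NPCs. Lefty1 (ENSMUSG00000038793, chromosome 1 from 180935022 to 180938400 in GRCm38), an inhibitor that binds Nodal and its co-receptor, was the first gene of the axis to reach a high level. It had 1.94 and 0.878 normalized counts in NPCs (2 reads and 1 read) and 909 and 1078 in control cells at day 2, where it was at 16.5% of the ESC mean. The ratio was 718 with a counting interval of 245 to 3487 (95%, counting error only). Its neighbor Lefty2 (ENSMUSG00000066652, chromosome 1 from 180893108 to 180899103) had 3.89 and 0.878 in NPCs and 281 and 297 at day 2, only 2.12% of the ESC mean. Lefty1 and Lefty2 are close paralogs, and reads shared between them may have been lost or split in the counting.

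The ligand gene Nodal (ENSMUSG00000037171, chromosome 10 from 61417972 to 61425338) itself was still near the floor, with 1.94 and 0 normalized counts in NPCs and 16.3 and 7.94 at day 2. It had a mean below 10 in these libraries and was not tested, and its ratio was 13.1 with a counting interval of 3.24 to 114. Gdf3 (ENSMUSG00000030117), a related ligand that uses the same co-receptor, had 75.4 and 58.6, Tdgf1 (ENSMUSG00000032494) 55.0 and 52.6, and Fgf4 (ENSMUSG00000050917) 33.6 and 26.8. All of these libraries lay above those of NPCs. The transcription factor genes moved the other way. Pou3f1 (ENSMUSG00000090125), a POU factor also used in the neural lineage, fell from 424 and 268 to 33.6 and 42.7, a log2 fold change of -3.12 ± 0.28 (SE, adjusted p = 0.00031, limma), and Zic2 (ENSMUSG00000061524) and Otx2 (ENSMUSG00000021848) fell by 1.97 ± 0.38 and 0.81 ± 0.20 on the log2 scale.

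Of the 9 genes tested, 6 were higher at day 2 and 3 were lower, at an adjusted p under 0.1, while 31.6% of all 15738 genes tested were higher and 37.6% lower. Their median log2 fold change was 3.28, against -0.08 over all genes. The call for Otx2 was lost without either day 2 control library (adjusted p of 0.17 without replicate 1 and 0.10 without replicate 2). Fibroblast markers summed to 41245 to 61123 normalized counts at day 2 and 29641 to 42965 in NPCs, with 8 of 8 above 3 reads in both, and the part of MEFs in the day 2 values was not tested.

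Between day 2 and day 5 the whole axis came up in control cells. Day 2 cells were sorted only as dye-negative and day 5 cells as SSEA1-positive, so time and this selection cannot be told apart. Tdgf1 went from 55.0 and 52.6 to 8202 and 8063 normalized counts, a log2 fold change of 7.21 ± 0.09 (adjusted p = 1.3e-07), and so passed the ESC libraries (6289 and 6590.2). Nodal reached 587 and 634, 43.5% of the ESC mean, and Gdf3 reached 1028 and 1453, 46.6% of it. Fgf4 reached 1839.8 and 1934, 27.7% of the ESC mean. Lefty2 went from 281 and 297 to 11786 and 12049.5, a log2 fold change of 5.36 ± 0.07 (adjusted p = 1.3e-07), and came close to the ESC level at 87.5%. Lefty1, which had the highest level of the axis at day 2, rose by only 1.42 ± 0.12 on the log2 scale to 2413 and 2893. Fgf5 (ENSMUSG00000029337), a ligand of the postimplantation epiblast that ESCs hardly expressed (2.95 and 0.952), rose to 137 and 152. Otx2 had 2012 and 2365 at day 2 and 2558 and 1461 at day 5, and these libraries overlapped, although it passed the threshold as lower without day 5 control replicate 1 (log2 fold change of -0.58, adjusted p = 0.0066).

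In this comparison 9 of 10 genes were higher and 0 lower, while 34.9% of 15729 genes were higher and 35.6% lower, and the median log2 fold change was 3.22 against 0.00 over all genes. The call for Pou3f1 (33.6 and 42.7 against 66.5 and 63.9) was lost without day 2 control replicate 1 or day 5 control replicate 1 (adjusted p of 0.16 and 0.11). Among other genes of the pathway, Foxh1, the DNA-binding partner of the SMADs, went from 8.15 and 5.96 to 937 and 1097 normalized counts, a log2 fold change of 6.99 ± 0.24 (adjusted p = 3.4e-06). Of 15 other formative and primed genes tested, 10 were higher and 2 lower, among them Cldn6, an epithelial claudin (log2 fold change of 5.98 ± 0.27), and Utf1, a chromatin factor of pluripotent cells (5.24 ± 0.30). Fibroblast markers summed to 1722 to 2597 at day 5.

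From day 5 to the X-GFP–negative cells of day 7 in the control, the axis did not move as a whole. Day 5 cells were sorted only as SSEA1-positive and the day 7 cells also by X-GFP, so time and this selection cannot be told apart. Lefty2 fell to 6362 and 6585, by 0.88 ± 0.06 on the log2 scale (adjusted p = 4.4e-05), and Gdf3 fell to 656 and 704, by 0.85 ± 0.15 (adjusted p = 0.0022). Fgf5 rose to 215 and 251, and Otx2 rose to 3848 and 3297 (log2 fold changes of 0.68 ± 0.16 and 0.88 ± 0.22). Nodal (567 and 622), Tdgf1 (7883 and 8739) and Zic2 (520.0 and 545) overlapped with their day 5 libraries. The counts were 3 of 10 higher and 3 lower, and 34.2% and 29.5% of all 15225 genes, so that the share of these genes was near that of all genes. The smallest calls, for Lefty1 (lower) and Fgf4 (higher), were lost without 1 library (adjusted p of 0.21 for Lefty1 without day 5 control replicate 2 and 0.28 without X-GFP–negative control replicate 1, and of 0.18 for Fgf4 without day 5 control replicate 1 and 0.45 without X-GFP–negative control replicate 2), and rescaling to equal totals, DESeq2 and edgeR also ended the call for Fgf4.

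The X-GFP classes of control cells at day 7 separated the genes into those that increased with X-GFP and those that did not. Fgf4 had 2025 and 2314 normalized counts in the negative class, 4169 and 4290.3 in the medium class and 6337 and 6929 in the high class. Tdgf1 followed with 7883 and 8739, then 11234 and 11464, then 18036 and 18019. For these genes no libraries of different classes overlapped, and the same was true of Nodal, which had 567 and 622, 703 and 756, and 1219 and 1431, and of Gdf3. Fgf5 took the opposite course, with 215 and 251, then 46.5 and 65.1, then 15.5 and 22.4. Its fall was 2.06 ± 0.18 on the log2 scale from negative to medium (adjusted p = 1.3e-05) and 1.51 ± 0.28 from medium to high (adjusted p = 0.00029). Lefty1, Lefty2, Pou3f1 and Zic2 were lowest in X-GFP–medium cells. Lefty2, for example, went from 6362 and 6585 to 4992 and 5400.3 and then to 9975 and 11673.

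From negative to medium, 4 of 10 genes were higher (Nodal, Gdf3, Tdgf1 and Fgf4, background 21.9% of 15382 genes) and 5 lower (Lefty1, Lefty2, Fgf5, Pou3f1 and Zic2, background 25.2%). From medium to high, 9 of 10 were higher (background 31.4% of 15516 genes) and Fgf5 alone was lower (background 32.7%), and their median log2 fold change was 0.62 against 0.00 over all genes. Rescaling to equal totals raised the share of calls over all genes that were higher from 46.5% to 60.2% in the first of these comparisons and ended the call for Pou3f1. The call for Pou3f1 between negative and medium (77.9 and 79.4 against 60.3 and 57.8) was lost without any 1 of the 4 libraries, with adjusted p between 0.19 and 0.30, that for Nodal without X-GFP–medium control replicate 2 (adjusted p = 0.17), Otx2 passed as lower without X-GFP–negative control replicate 2 (adjusted p = 0.00096), and that for Otx2 between medium and high without X-GFP–medium control replicate 2 or X-GFP–high control replicate 2 (adjusted p of 0.20 and 0.10). When all 24 libraries shared 1 fit, 3 members stayed past the threshold from negative to medium and 5 from medium to high. The call for Lefty1 between medium and high was also lost with DESeq2 (adjusted p = 0.16) and with no filter on low values (adjusted p = 0.11). The summed naive markers rose over the same classes, from 19717 to 21848 through 36932 to 37436 to 65566 to 67000 normalized counts.

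ESCs were compared with the X-GFP–high cells of both arms, the populations with the most X-GFP. In control X-GFP–high cells, Nodal (94.5% of the ESC mean) and Fgf4 (97.4%) had libraries that overlapped with those of ESCs, with log2 differences, ESCs minus X-GFP–high, of 0.09 ± 0.08 and 0.04 ± 0.05 (adjusted p of 0.34 and 0.53). Otx2, the homeobox factor of the early exit from naive pluripotency, had 464 and 364 in ESCs and 3552 and 3711 in X-GFP–high cells, a log2 difference of -3.14 ± 0.09 (adjusted p = 9.3e-12). Tdgf1 was at 279.9% of the ESC mean, and ESCs were lower by a log2 difference of -1.49 ± 0.05. Fgf5 had 4 reads in the 2 ESC libraries together and 36 in those of X-GFP–high cells. Lefty1 was the gene farthest below ESCs, at 27.0% of their mean (1361 and 1899 against 6297 and 5769.8), a log2 difference of 1.91 ± 0.11 (adjusted p = 3e-09). Against control X-GFP–high cells, 3 of 10 genes were higher in ESCs (background 37.8% of 15427 genes) and 5 lower (background 37.9%). Without X-GFP–high control replicate 2, Nodal passed the threshold (adjusted p = 0.047) and the call for Zic2 was lost (adjusted p = 0.57). Against IFNγ-treated X-GFP–high cells, 2 were higher (background 33.9% of 15387 genes), namely Gdf3 and Lefty1, and 7 lower (background 33.2%). The calls for Nodal and Fgf4 in the latter were lost without IFNγ-treated X-GFP–high replicate 1 or either ESC library (adjusted p between 0.12 and 0.22 for Nodal and between 0.20 and 0.56 for Fgf4), and Lefty2 passed without the first of these (adjusted p = 0.021). Both comparisons share the ESC libraries. Against NPCs, ESCs were higher in 6 of 9 genes tested (background 42.2% of 15911 genes) and lower in Otx2 and Pou3f1 (background 43.4%). Zic2 (385 and 381 against 637 and 413) did not pass the main test (adjusted p = 0.11, limma). It passed as lower with rescaled totals (log2 fold change of -0.55, adjusted p = 0.052), the replicate block (adjusted p = 0.05) and edgeR (adjusted p = 0.08). Without NPC replicate 2 its log2 fold change was -0.73. Fgf5 was not tested there, with 3 and 1 reads in ESCs and 3 and 6 in NPCs.

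IFNγ against control cells at day 2 asked whether the axis responds while the cytokine is present. Lefty2 fell from 281 and 297 to 192 and 151 normalized counts, by 0.76 ± 0.16 on the log2 scale (adjusted p = 0.049, limma). Lefty1 had 909 and 1078 in the control and 726 and 826 with IFNγ, and these libraries did not overlap, but the difference did not pass the test (log2 fold change of -0.35 ± 0.11, adjusted p = 0.14). Nodal, Gdf3, Fgf4, Pou3f1 and Zic2 overlapped between the arms. Thus 1 of 10 genes was lower and 0 higher, against 3.45% and 5.03% of 15697 genes. The call for Lefty2 was lost without day 2 control replicate 1, day 2 control replicate 2 or day 2 IFNγ replicate 2 (adjusted p of 0.17, 0.19 and 0.19), and Otx2 passed as higher without day 2 control replicate 2 (adjusted p = 0.086). Fibroblast markers also differed between the arms, with sums of 41245 to 61123 in the control and 25216 to 30753 with IFNγ and 4 of 8 lower past the threshold, and their part in the result was not tested. Gsc, an organizer gene induced by Nodal signaling, had 10.2 and 6.95 in the control and 141 and 98.9 with IFNγ, a log2 fold change of 3.66 ± 0.32 (adjusted p = 0.0017). Of 6 tested mesendoderm targets of Nodal it was the only 1 past the threshold, and their median log2 fold change was 0.34.

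At day 5 Lefty2 was again lower, and Lefty1, which had not passed the test at day 2, was lower too. Lefty1 fell from 2413 and 2893 to 1579.8 and 948 normalized counts, by 1.11 ± 0.22 on the log2 scale (adjusted p = 0.093), and Lefty2 fell from 11786 and 12049.5 to 7406 and 5058, by 0.96 ± 0.16 (adjusted p = 0.058). Nodal (587 and 634 against 604 and 572), Tdgf1 (8202 and 8063 against 8663 and 7989) and Gdf3 (1028 and 1453 against 1199 and 1438) overlapped between the arms. For Nodal the log2 difference was -0.05 ± 0.11 and for Tdgf1 0.03 ± 0.07. The counts were 2 of 10 lower and 0 higher, against 0.535% and 1.65% of 15133 genes. Over all genes, 75.5% of the calls were higher, and 61.0% with DESeq2. Both calls were lost with no filter on low values (adjusted p of 0.19 for Lefty1 and 0.12 for Lefty2) and without day 5 control replicate 1 or day 5 control replicate 2 (adjusted p between 0.11 and 0.17), and without day 5 IFNγ replicate 1 there were 4 lower genes, the other 2 being Fgf5 and Zic2. The libraries of the IFNγ arm lay apart for Fgf5 (159.5 and 41.1) and Zic2 (482 and 281), and those of both arms did for Otx2 (2558 and 1461 in the control, 2702 and 1539 with IFNγ). Fibroblast markers summed to 1722 to 2597 in the control and 919 to 1469 with IFNγ, with 0 of 8 past the threshold, and 2 of 5 tested primitive endoderm markers were higher (sums of 430 to 513 and 566 to 755), and their part in the result was not tested. Dusp6, a feedback phosphatase of ERK, was the only gene of the pathway and formative lists that passed the threshold at day 5 beside the members, with a log2 fold change of 0.46 ± 0.07 (adjusted p = 0.046).

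**Figure D2:**
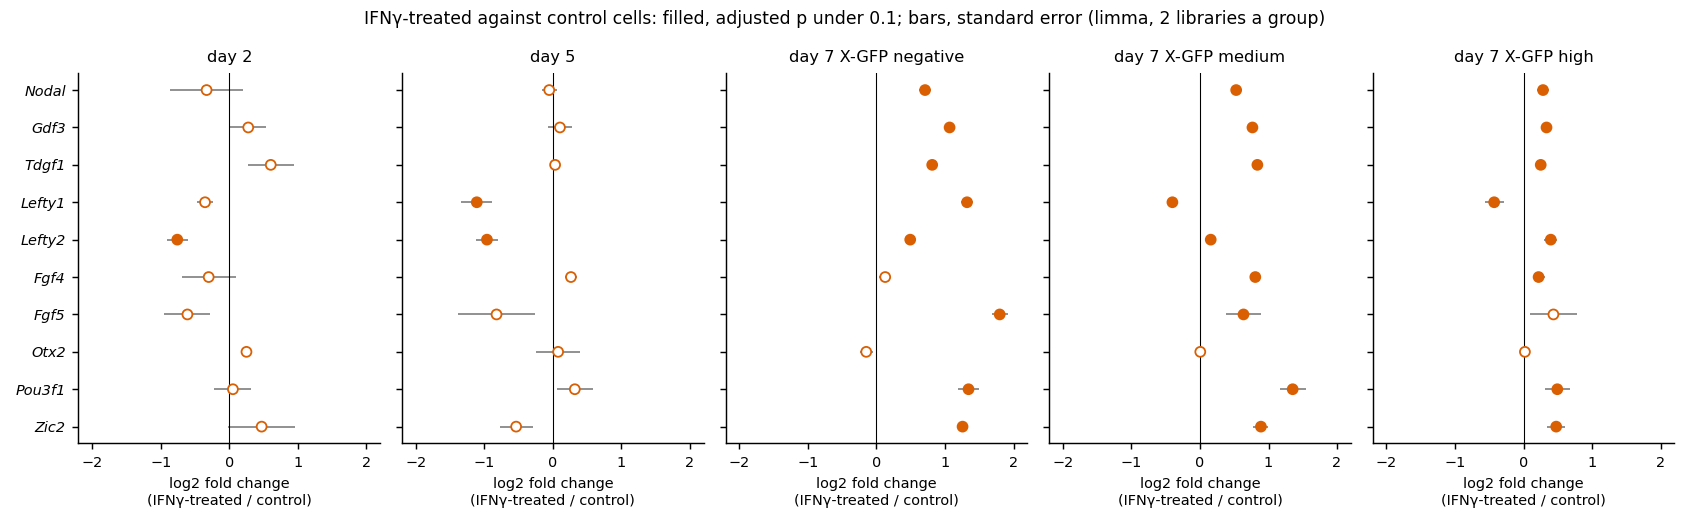
Log2 fold change of the 10 genes between IFNγ-treated and control cells (x axis) at day 2, at day 5 and in the 3 X-GFP classes of day 7, with the standard error as bars and filled points for an adjusted p under 0.1 (limma, 2 libraries per group). Lefty1 and Lefty2 lie to the left at day 2 and day 5, most genes lie to the right at day 7, and Lefty1 is right of 0 in X-GFP–negative cells only.

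Among day 7 cells of the negative class, 8 of the 10 members were higher after IFNγ treatment and 0 lower, while 31.1% of 15531 genes were higher and 30.8% lower. Fgf5 had the largest change, from 215 and 251 to 765 and 859 normalized counts, a log2 fold change of 1.80 ± 0.12 (adjusted p = 4.7e-06). Pou3f1 rose from 77.9 and 79.4 to 195 and 207 (log2 fold change of 1.34 ± 0.15), and Zic2, a zinc finger factor of the formative epiblast, from 520.0 and 545 to 1271 and 1275 (1.26 ± 0.08). The formative factor Otx2 did not follow them, with 3848 and 3297 in the control and 3467 and 2978 with IFNγ. Of the Nodal axis, Lefty1 rose most, from 2033 and 2321 to 5875 and 5020.5 (log2 fold change of 1.32 ± 0.09, adjusted p = 6.6e-06), which brought it to 90.3% of the ESC mean. Gdf3 rose from 656 and 704 to 1419 and 1431, Tdgf1 from 7883 and 8739 to 15589.7 and 13648, Nodal from 567 and 622 to 963 and 981 and Lefty2 from 6362 and 6585 to 9503 and 8731. None of these libraries overlapped between the arms. Fgf4 (2025 and 2314 against 2474 and 2263) overlapped (adjusted p = 0.22).

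The median log2 fold change of the 10 genes was 0.94, against 0.02 over all genes. Rescaling to equal totals shifted all genes by 0.16 and raised the share of calls that were higher from 50.3% to 66.2%, and Otx2 then changed from -0.15 to 0.01 while Fgf4 passed the threshold (log2 fold change of 0.29, adjusted p = 0.018). With all 24 libraries in 1 fit the calls for Nodal and Lefty2 were lost (adjusted p of 0.11 and 0.13). Leaving out single libraries ended none of the 8 calls, but without X-GFP–negative control replicate 2 Fgf4 passed the threshold as well (adjusted p = 0.084), and Otx2 passed it as lower without that library or X-GFP–negative IFNγ replicate 1 (adjusted p of 0.070 and 0.035). All 8 mesendoderm genes of the target list were also higher, with a median log2 fold change of 2.50. T, a T-box factor of the primitive streak, went from 251 and 183 to 2237 and 2620.1 (3.49 ± 0.14), Gsc from 17.6 and 25.8 to 172 and 169 (2.94 ± 0.23) and the endoderm factor Sox17 from 9.87 and 16.1 to 139.6 and 139.6 (3.37 ± 0.27). Cer1, a secreted antagonist of Nodal that is itself a Nodal target, went from 25.2 and 16.1 to 493 and 438 normalized counts, a log2 fold change of 4.46 ± 0.22 (adjusted p = 1.4e-06). Of 15 other formative and primed genes, 11 were higher and 4 lower (median 1.2). Primitive endoderm markers, which include Sox17 and Foxa2, summed to 630 to 674 in the control and 1550 to 1676 with IFNγ, with 5 of 6 higher, and their part in the result was not tested. Fibroblast markers summed to 4479 to 5098 and 1039 to 1073, but only 1 of 8 was lower past the threshold and 1 higher (median -0.23). All 4 Y-linked genes were at 3 reads or fewer in each library.

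In X-GFP–medium cells, 8 of 10 genes were higher after IFNγ treatment and 1 lower, against 33.3% and 29.6% of 15595 genes. Fgf4 rose from 4169 and 4290.3 to 7782 and 7032 normalized counts (log2 fold change of 0.81 ± 0.06, adjusted p = 5.6e-06), which put it at 109% of the ESC mean. Tdgf1 rose from 11234 and 11464 to 21818 and 18834 (0.84 ± 0.07), libraries that overlapped with those of treated X-GFP–high cells (23085 and 19914). Nodal rose from 703 and 756 to 1027 and 1076, Gdf3 from 838 and 962 to 1513 and 1541, Zic2 from 295 and 319 to 532 and 607 and Pou3f1 from 60.3 and 57.8 to 134 and 173. Lefty1 fell from 1157 and 1288 to 908 and 939, by 0.40 ± 0.08 on the log2 scale (adjusted p = 0.0018). Lefty2 (4992 and 5400.3 against 5447 and 6148) and Fgf5 (46.5 and 65.1 against 70.5 and 105) had the weakest calls. That for Lefty2 was lost without X-GFP–medium control replicate 1 or 2 or IFNγ replicate 2 (adjusted p of 0.47, 0.11 and 0.33) and when DESeq2, edgeR or rescaled totals were used, and that for Fgf5 without X-GFP–medium control replicate 1 or IFNγ replicate 2 (adjusted p of 0.36 and 0.23), with DESeq2 (0.18) and with no filter (0.13). That for Lefty2 was also lost with no filter (adjusted p = 0.17). With all 24 libraries in 1 fit, 3 members passed the threshold. Fibroblast markers summed to 5070 to 5645 in the control and 729 to 774 with IFNγ, with 4 of 8 lower and 2 higher. Primitive endoderm markers summed to 619 to 622 and 1030 to 1176, with 4 of 6 higher and 1 lower, and the part of either list in the result was not tested. Among the other genes, Dnmt3b, a de novo DNA methyltransferase of the formative epiblast, went from 1861 and 2085 to 5547 and 6835 (log2 fold change of 1.64 ± 0.10), and Lef1, a transcription factor of the Wnt pathway, from 1015 and 963 to 185 and 219.6 (-2.29 ± 0.11).

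In X-GFP–high cells the call counts were similar, with 7 of 10 genes higher and 1 lower, against 18.1% and 20.4% of 15598 genes. The median log2 fold change was 0.31, against 0.03 over all genes. Lefty2 had 9975 and 11673 normalized counts in the control and 13201 and 15286 with IFNγ (0.40 ± 0.09, adjusted p = 0.0070). Gdf3 rose from 1238 and 1383 to 1670.3 and 1632 (0.33 ± 0.08, adjusted p = 0.0093) and Zic2 from 406 and 529 to 609 and 684 (0.48 ± 0.13, adjusted p = 0.017). Lefty1 was the lower gene, with 1361 and 1899 in the control and 1073 and 1329 with IFNγ (-0.43 ± 0.14, adjusted p = 0.037). Fibroblast markers summed to 2187 to 2669 in the control and 671 to 734 with IFNγ, with 1 of 7 tested higher and 1 lower, and primitive endoderm markers to 505 in both control libraries and 500.4 to 523 with IFNγ, with 3 of 6 higher and 2 lower, and their part in the result was not tested. The counts of members rested on single libraries, since 1 call was left without X-GFP–high control replicate 1 and 4 without X-GFP–high control replicate 2. With all 24 libraries in 1 fit 0 calls were left, with DESeq2 5 and with no filter on low values 1.

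**Figure D3:**
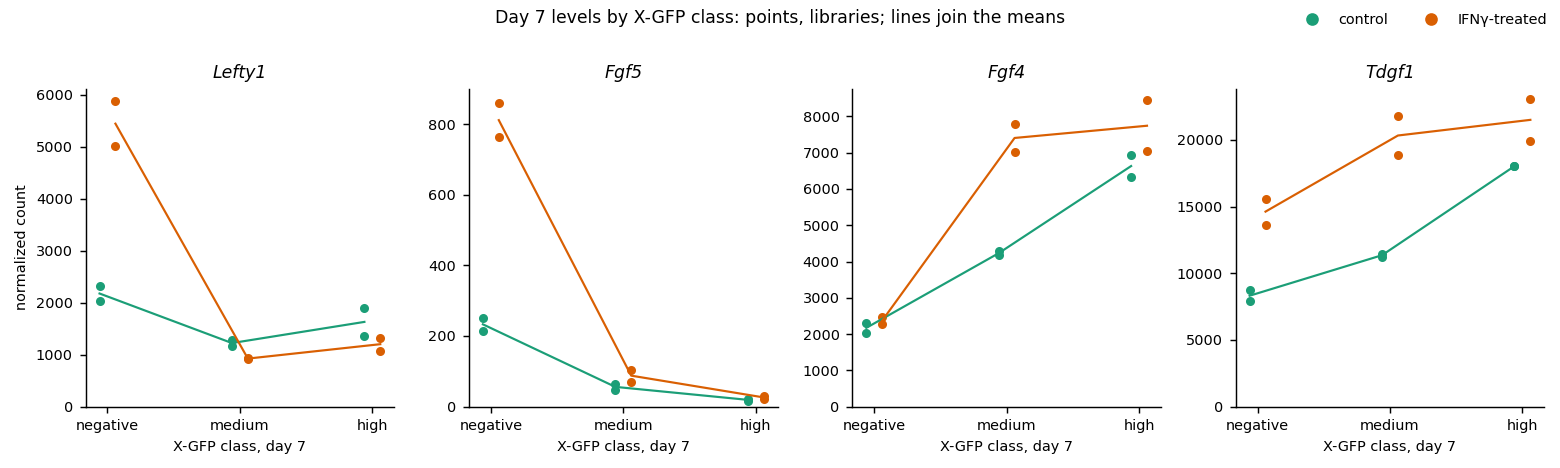
Normalized counts of Lefty1, Fgf5, Fgf4 and Tdgf1 (y axis, from 0) in the 3 X-GFP classes of day 7 cells (x axis), in control (green) and IFNγ-treated (orange) cells. Points are libraries and lines join the means. The arms differ most in X-GFP–negative cells for Lefty1 and Fgf5 and most in X-GFP–medium cells for Fgf4.

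Whether the effect of IFNγ differed between the classes was tested as an interaction in 8 libraries. Comparing the medium with the negative class, it differed for 4 of 10 genes, against 15.7% of 15627 genes. Rescaling to equal totals shifted all genes by -0.16 in this test, lowered the share of higher calls from 46.6% to 12.3% and gave 7 members. For Lefty1 the difference of the log2 effects, medium minus negative, was -1.72 ± 0.13 (adjusted p = 0.00023), since Lefty1 was higher after IFNγ in X-GFP–negative cells and lower in X-GFP–medium cells. It was -1.16 ± 0.30 for Fgf5 (adjusted p = 0.035), -0.34 ± 0.10 for Lefty2 (adjusted p = 0.064) and 0.68 ± 0.11 for Fgf4 (adjusted p = 0.0054), the only one of the 4 whose effect was larger in X-GFP–medium cells. The call for Lefty2 was lost without X-GFP–negative control replicate 1 or 2, X-GFP–negative IFNγ replicate 1, X-GFP–medium control replicate 1 or 2 or X-GFP–medium IFNγ replicate 1 (adjusted p between 0.11 and 0.24). That for Fgf5 was lost without X-GFP–negative control replicate 1, X-GFP–negative IFNγ replicate 2 or X-GFP–medium control replicate 2 (adjusted p of 0.12, 0.11 and 0.15). Of the mesendoderm genes, 6 of 8 had a smaller effect in X-GFP–medium cells, and 0 a larger one.

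Comparing the high with the medium class, the effect differed for 4 of 10 genes, against 12.8% of 15623 genes. It was smaller in X-GFP–high cells in all 4. This test and the one before share the X-GFP–medium libraries. The differences were -0.59 ± 0.12 for Tdgf1 (adjusted p = 0.017), -0.59 ± 0.12 for Fgf4 (adjusted p = 0.020), -0.43 ± 0.12 for Gdf3 (adjusted p = 0.051) and -0.86 ± 0.26 for Pou3f1 (adjusted p = 0.074). For Lefty1 it was -0.03 ± 0.20 (adjusted p = 0.95). The calls for Gdf3 and Fgf4 were lost without X-GFP–medium control replicate 1 or X-GFP–high control replicate 2 (adjusted p of 0.21 and 0.21 for Gdf3, and of 0.10 and 0.12 for Fgf4). That for Pou3f1 was lost without any of 6 libraries, namely the 4 control libraries and IFNγ replicate 2 of X-GFP–medium and of X-GFP–high cells (adjusted p between 0.12 and 0.24).

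**Figure D4:**
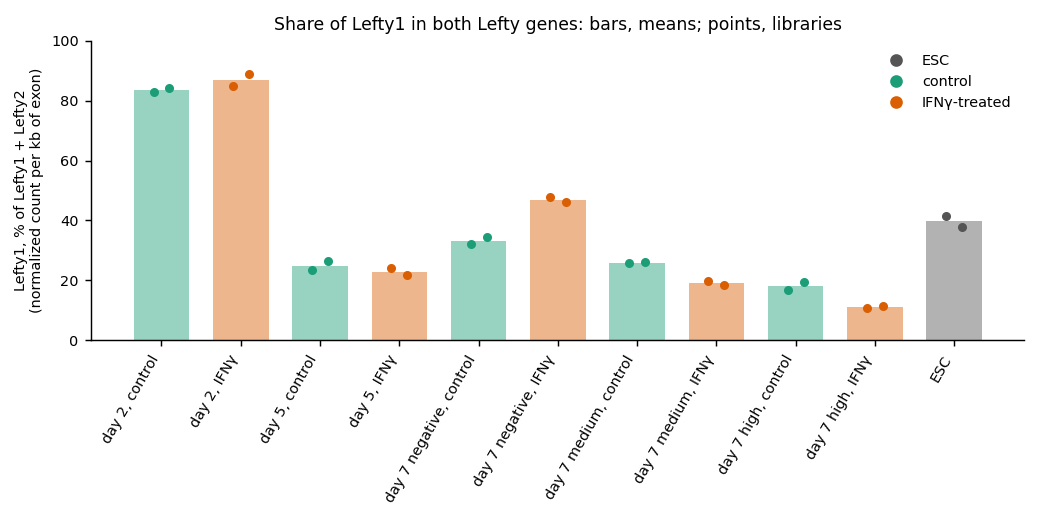
Share of Lefty1 in the summed normalized counts per kb of Lefty1 and Lefty2, in percent (y axis), by population (x axis), without NPCs, which had 6 and 2 reads of both genes together. Bars are means of 2 libraries and points are libraries. The share is above 80% at day 2, between 20% and 27% at day 5, and moves in opposite directions with IFNγ in X-GFP–negative and X-GFP–high cells.

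The balance of both antagonists differed between the populations. Lefty1 made up 83.6% ± 1.12 of the summed normalized counts per kb of Lefty1 and Lefty2 at day 2 in the control (SD, n = 2) and 24.8% ± 2.10 at day 5, against 39.7% ± 2.59 in ESCs. At day 7 in the control it went from 33.3% ± 1.54 in the negative class to 25.9% ± 0.381 in the medium and 18.2% ± 1.84 in the high class. With IFNγ it was 47.0% ± 1.28, 19.2% ± 0.959 and 11.1% ± 0.471 in these classes, so that it was above the control in the first and below it in the others, with no overlap of libraries in any of the 3. At day 5 the share was 22.9% ± 1.61 with IFNγ and overlapped with that of the control, although both genes were lower. An exact two-sided permutation test of 2 against 2 libraries cannot give a p below 0.33, so these shares are given without one.

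The order of the 12 population means was clearest for Tdgf1, Lefty2 and Pou3f1, for which 8 of the 11 neighboring steps had libraries that did not overlap, and least clear for Otx2, with 3. Otx2 was highest in NPCs (4733 and 3088) and lowest in ESCs, and the 7 highest populations, all 6 of day 7 among them, formed an unbroken run of overlapping neighbors. The highest mean of Nodal, Tdgf1, Lefty2 and Fgf4 was in IFNγ-treated X-GFP–high cells, at 115%, 334%, 105% and 114% of the ESC mean. For Lefty2 this population and ESCs overlapped, and for Tdgf1 and Fgf4 it overlapped with IFNγ-treated X-GFP–medium cells. The highest mean of Fgf5 and Zic2 was in IFNγ-treated X-GFP–negative cells, and that of Gdf3 and Lefty1 in ESCs. For Lefty1 the ESC libraries overlapped with those of IFNγ-treated X-GFP–negative cells.

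Across the 12 population means of log2(normalized count + 1), the gene most like Nodal among 13844 genes was Fbxo15, a marker of pluripotent cells (Pearson's r = 0.995), followed by Fgf4 (0.995) and Gtsf1l (0.993). Fgf4 was most like Fbxo15 (0.999), Slc9b1 (0.996) and Tfcp2l1 (0.996), Gdf3 most like Tdh (0.996), Stat6 (0.993) and Lefty2 (0.990), and Lefty2 most like Castor1 (0.993), Gdf3 (0.990) and Stat6 (0.989). Tdgf1 was most like Tdgf1-ps1 (0.994), a pseudogene copy with which it may share reads, Zyg11a (0.993) and Fbxo27 (0.993). Pou5f1 (0.960) and Urah (0.959) were among the genes most like Lefty1. Pou5f1 is the Oct4 of the doxycycline-inducible cassette, and the part of cassette reads in its counts was not tested. The formative genes had less similar partners, with Lyn (0.966), Tmem154 (0.95) and Dync1i1 (0.931) for Fgf5, Acvr2b (0.978), Trp53i13 (0.960) and Intu (0.959) for Pou3f1, Mogat2 (0.922), Arap3 (0.918) and Eomes (0.915) for Zic2, and Tmem181a (0.931), Ralgps1 (0.929) and Lclat1 (0.926) for Otx2. These values describe 12 points, most of which share the split between NPCs and day 2 on the one hand and later cells on the other.

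Receptors and transducers of the pathway were counted in the same way, and the shares of all genes to read these counts against are 31.1% higher and 30.8% lower in the negative, 33.3% and 29.6% in the medium and 18.1% and 20.4% in the high class. In X-GFP–negative cells after IFNγ, 2 of 4 tested activin receptor and co-receptor genes were higher and 2 lower, and 1 of 6 SMAD and partner genes was higher and 2 lower, with medians of 0.13 and -0.09. Of the antagonists and feedback inhibitors outside the members, 3 of 8 were higher and 3 lower, and of the other ligands and convertases 3 of 3 were lower. Among the FGF receptors and ERK feedback genes, 5 of 9 were higher and 1 lower in both the negative and the medium class. In the high class 4 of 9 were higher and 1 lower, and Spry4, an inhibitor of receptor tyrosine kinase signaling, went from 1461 and 1570.2 to 2481 and 3638 normalized counts (log2 fold change of 0.99 ± 0.14, adjusted p = 0.00025). Of the 8 naive markers, 7 were higher after IFNγ in the negative class, 8 in the medium class and 5 in the high class, where 1 was lower.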

How the data were processed

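RNA-seq values of 24 libraries were used, 2 for each of 12 populations named by the labels. The authors aligned read pairs (stranded, ribosomal RNA removed) with STAR to mm10, counted them per gene with HTSeq 0.6.1 and divided them by 1 DESeq2 size factor per library, and the deposited signal values are these normalized counts, not coverage. Dividing each library by its smallest step gave whole reads for 100% of the genes (tolerance 0.01), and these entered DESeq2 and edgeR. A value at or below 3 reads in each library was treated as at the floor, and intervals cover counting error only. Symbols, coordinates and exon lengths came from GENCODE vM21 (GRCm38), in which 95.0% of identifiers were found. The release used by the authors may differ.

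Differences were tested with limma 3.58.1 in R 4.3.3 (lmFit, then eBayes with its trend option), with log2(normalized count + 1) as the response and only the 4 libraries of a comparison, or the 8 of an interaction, entering, two-sided, for genes with a mean above 10, with Benjamini-Hochberg adjustment over all genes tested and a threshold of 0.1. A fold change on this scale understates the change of low genes. Alternatives were a pseudocount of 0.1, no filter, values rescaled to 1 total, 1 fit of all 24 libraries, a replicate block, edgeR 4.0.16 (quasi-likelihood, TMM), DESeq2 1.42.0 and leaving out each library. The fits were tested on simulated data. Other steps ran in Python 3.11.15 with scipy 1.17.1 and pandas 2.3.3.

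The members and gene lists were chosen with earlier results of these data known. Pathway genes were named by a rule, at most 4 per comparison, taking the largest called changes of genes that averaged 100 or more in either group and whose libraries did not overlap, and not all of them are printed. T and Foxa2 in NPCs and Foxh1, Cldn6 and Utf1 at day 5 came from that rule too. Genes of like pattern were the 3 with the highest r among genes with a population mean of at least 100. Some genes that these rules and lists select are not reported here. Replicate libraries were checked for duplicates, and the chi-square divided by its degrees of freedom was 3.16 to 19.3, above counting noise. The allelic proportions of X-linked genes were not used, since they hold none of the 10 genes.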

Additional observations from a re-analysis of the deposited data

Results flagged for a closer look

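The effect of IFNγ at day 7 differed between X-GFP classes for 4 of the 10 genes in each of 2 interaction tests of limma. The tests called 15.7% and 12.8% of all genes. From X-GFP–negative to X-GFP–medium cells the log2 effect changed by -1.72 for Lefty1, -0.34 for Lefty2 and -1.16 for Fgf5 and by 0.68 for Fgf4. From X-GFP–medium to X-GFP–high cells it changed by -0.43 for Gdf3, -0.59 for Tdgf1, -0.59 for Fgf4 and -0.86 for Pou3f1. Fgf4 was the gene of both sets, with its largest effect in X-GFP–medium cells. Both tests share the X-GFP–medium libraries, so its 2 calls are not independent. For Lefty1 both IFNγ libraries lay above both control libraries in X-GFP–negative cells and below both in X-GFP–medium cells. With all 24 libraries in 1 fit 1 and 0 members were called, and leaving out 1 library could end the calls for Lefty2 and Fgf5 in the first test and for Gdf3, Fgf4 and Pou3f1 in the other. No group had 4 libraries, so single libraries were not tested as outliers.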

How the results depend on the processing

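Of the 28 changes of single genes past the threshold after IFNγ, 247 of 308 alternative values kept direction and call, 61 kept the direction and lost the call, and 0 changed sign. The number of members past the threshold moved by over 1.5 times in these cases. With all 24 libraries in 1 fit it was 0 in place of 1 at day 2, 3 in place of 9 in X-GFP–medium cells and 0 in place of 8 in X-GFP–high cells after IFNγ, 2 in place of 6 between day 5 and X-GFP–negative control cells, 3 in place of 9 between the negative and medium and 5 in place of 10 between the medium and high classes of the control, and 1 and 0 in place of 4 in the interactions, and the cause was not tested. Without the filter it was 0 at day 2, 0 at day 5, 1 in X-GFP–high cells and 2 in the interaction of high and medium. DESeq2 called 5 in X-GFP–high cells, and rescaling gave 7 in the interaction of medium and negative, where it shifted all genes by -0.16 and lowered the share of higher calls from 46.6% to 12.3%. Between control X-GFP–negative and X-GFP–medium cells rescaling raised that share from 46.5% to 60.2%, and at day 5 DESeq2 lowered it from 75.5% to 61.0%. Rescaling also shifted all genes by -0.12 from day 2 to day 5 and by -0.13 between ESCs and NPCs.

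Leaving out 1 library gave 0 to 1 members at day 2, 0 to 4 at day 5, 1 to 8 in X-GFP–high cells, 2 to 5 in the interaction of medium and negative and 1 to 4 in that of high and medium. Changes that had not passed the threshold changed sign without 1 library, with log2 ranges at day 2 of -0.84 to 0.18 for Nodal, -0.80 to 0.20 for Fgf4, -0.12 to 0.22 for Pou3f1 and -0.18 to 1.12 for Zic2, at day 5 of -0.15 to 0.35 for Gdf3, -0.026 to 0.091 for Tdgf1, -1.79 to 0.14 for Fgf5 and -0.33 to 0.48 for Otx2, and of -0.012 to 0.051 for Otx2 in X-GFP–high cells. Otx2 in X-GFP–negative cells was 0.0085 with rescaled values.

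The labels give the libraries shared numbers but no pairing. With the replicate block, 5 members passed the threshold at day 2 (Tdgf1, Otx2 and Zic2 higher, Lefty1 and Lefty2 lower) and 5 at day 5 (Fgf4 higher, Lefty1, Lefty2, Fgf5 and Zic2 lower), and the counts of the other comparisons stayed within 1.5 times. Deviations of libraries with the same number correlated across genes at 0.31 at day 2, 0.26 at day 5 and 0.05 to 0.12 at day 7. At day 2, Nodal had 6 to 16 reads per library, which limits what depth can show.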
